A study of Homo sapiens with 28 samples.

Results

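SKNO1 is an established human acute myeloid leukaemia (AML) cell line known for the t(8;21) translocation, which joins RUNX1 to RUNX1T1. Its response to GSK3484862, an inhibitor of the DNA methyltransferase DNMT1, was described from the arrays whose title names SKNO1, which were 4 of the 28 arrays of the series. Cells of the treated group had grown for 96 hours (day 4) with 1 µM GSK3484862, and cells of the control group for the same time with the vehicle alone, 0.1% DMSO. Each group held 2 arrays, described by the submitters as biological duplicates. The series used Affymetrix Human Genome U133 Plus 2.0 arrays and gave 6 other AML lines, GDM1, MOLM13, SKM1, THP1, NOMO1 and SHI1, the same treatment. They serve here as context. SKNO1 is a single line and the dose and time were single too, so that neither a dose course nor other t(8;21) lines could be compared.

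DNMT1 copies methyl marks onto the new DNA strand after replication, with the help of UHRF1. Blocking it lets methylation fade as cells divide, and genes kept silent by methylation of CG dinucleotides in their promoters can then be read again. Genes of this kind include germ-line genes known as cancer-testis antigens and, in myeloid leukaemia cells, genes of mature blood cells. The first question of the comparison was which genes were higher or lower in SKNO1 after 4 days of inhibitor, and the second which of these changes differed from those of the other lines.

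Values are log2 signals of probe sets as deposited, the base of the log being taken from their range because it is not given in the sources used here. Where a gene had several probe sets, the brightest on average over the 28 arrays stood for it, which gave 11676 genes. A change is the mean of the 2 treated arrays minus the mean of the 2 vehicle arrays, with the standard error of a limma fit of all 14 groups, and a gene is called where its Benjamini-Hochberg adjusted p-value, computed across all genes, is under 0.05. The lowest value of the table is 2.13, so a rise from near 2 is limited by that lower end. The SKNO1 duplicates correlated across genes at r = 0.997 with vehicle and 0.996 with inhibitor, and the array medians lay between 8.39 and 8.51. The number of arrays limits the precision, and p-values rest on the spread between duplicates pooled over all 14 groups, not on the SKNO1 duplicates alone. In bulk RNA a smaller share of cells with a transcript and less of it per cell cannot be told apart.

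The label was checked against marker genes. With vehicle SKNO1 had high levels of the myeloperoxidase gene MPO (15.2), of the stem cell factor receptor gene KIT (13.09) and of ROBO1 (11.8), the last 2 above the highest vehicle mean of any other line (12.99 and 11.6). POU4F1, a transcription factor gene typical of t(8;21) AML, stood at 6.83, within the range of 2.99 to 10.0 of the other lines. CAV1, also listed as a marker of this subtype, was low at 2.52 and lay 0.86 below the mean of the other lines (2.13 to 9.60), and the B cell factor gene PAX5 stood at 5.87, within their range of 2.97 to 7.26. The B cell gene CD79B stood at 10.2 against at most 8.70 elsewhere, while CD79A, also a B cell gene, stood at 4.73, within their range of 4.20 to 7.53. Of the markers of other cell types, CD3D of T cells (4.57), NKG7 of NK cells (4.72) and NCAM1 (2.40 on all 4 arrays) were low. ITGA2B of megakaryocytes (6.22), KRT8 of epithelia (5.32) and COL1A1 of fibroblasts (9.39) lay within the ranges of the other lines (3.77 to 13.2, 4.99 to 5.71 and 9.15 to 9.58). RUNX1T1, RUNX1, CD34 and CD33 were not analysed here.

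By this test 710 of the 11676 genes (6.08%) were called, 346 higher (2.96%) and 364 lower (3.12%). The counts were alike but the sizes were not. Among changes of at least 2-fold there were 142 rises (1.22%) and 60 falls (0.514%), and among those of at least 4-fold 51 rises and 5 falls. The median change was 0.88 for genes called higher and -0.49 for genes called lower, against -0.02 over all genes. Both treated arrays lay above both vehicle arrays in 344 of the 346 genes called higher and below both in all 364 called lower, which compares with 2255 and 3398 of all 11676 genes. The calls come from the same arrays, so this separation largely follows from them and is no separate support. Genes that rose by 2-fold or more came from a median vehicle level of 4.53 to 6.63, and genes that fell as much went from 6.27 to 4.76. Of 1019 genes with both vehicle arrays under 3, 40 were called higher. Changes in the pair of arrays numbered 1 and the pair numbered 2 correlated across genes at r = 0.716, over genes that are not independent. Where a called gene had more than 1 probe set, all of them moved in its direction for 125 of 156 genes called higher and 149 of 188 called lower.

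How many genes passed depended on the arrays and on the scale. Fitted on its own 4 arrays, SKNO1 gave 0 calls with limma, where 913 rises and 1399 falls had an unadjusted p under 0.05, so the calls rest on the spread pooled over the lines. Without vehicle array 1 there were 224 rises and 144 falls, without vehicle array 2 261 and 196, without treated array 1 322 and 166, and without treated array 2 213 and 216. In each of these fits 1 arm is a single array assumed to vary like the other groups, and 181 to 244 of the 346 rises and 127 to 172 of the 364 falls were called again. With each array centred on its median the calls were 406 rises and 279 falls (59.3% rises against 48.7%). In a fit of all 27306 probe sets, with those that name no gene or several included, 482 were called higher (1.77%) and 482 lower (1.77%).

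**Figure D1:**
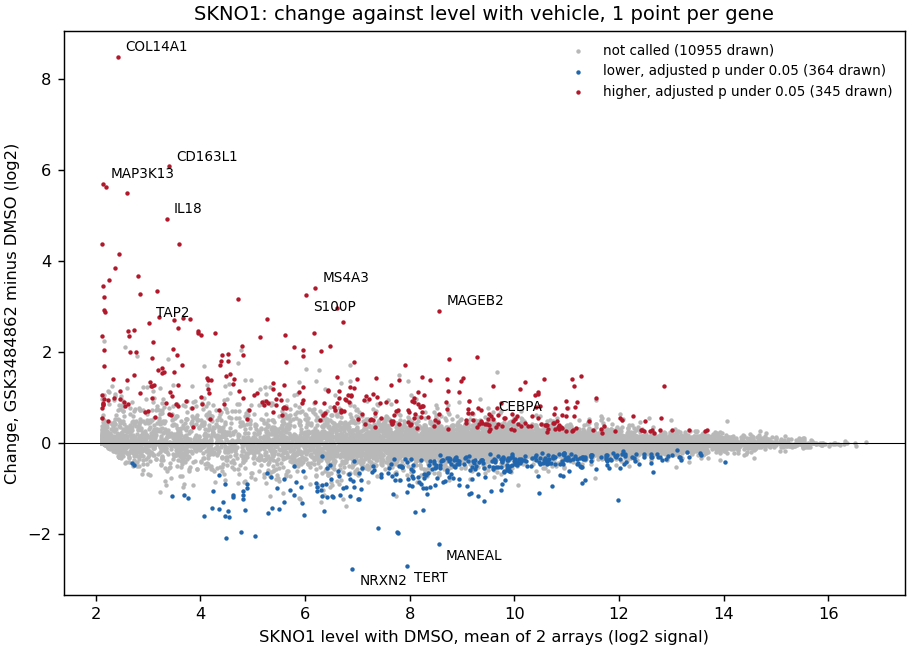
The change in SKNO1 (GSK3484862 minus DMSO, log2) is plotted against the mean level of the 2 vehicle arrays, with 1 point per gene and the called genes in colour. Of the 50 rises of at least 4-fold drawn, 19 start from a vehicle level under 3, as COL14A1 does at 2.43, and 33 from one under 4, while the falls spread over all levels and NRXN2 has the largest at -2.78.

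The genes with the largest rises were mostly near the lower end with vehicle. COL14A1, which encodes a fibril-associated collagen, had 2.14 and 2.73 on the vehicle arrays and 11.18 and 10.65 on the treated arrays, a change of 8.48 ± 0.35 (adjusted p = 1.81e-10). CD163L1, a scavenger receptor gene of the CD163 family, had 3.23 and 3.57 with vehicle and 9.25 and 9.70 with inhibitor (6.07 ± 0.27, adjusted p = 2.43e-10). In both the treated arrays lay far above the vehicle arrays. MAP3K13, a kinase gene that acts upstream of JNK signalling, went from 2.13 and 2.16 to 7.46 and 8.22 (5.69 ± 0.16, adjusted p = 6.16e-13), with both of its probe sets higher. IL23R, a subunit gene of the interleukin 23 receptor, went from 2.19 and 2.20 to 7.95 and 7.67 (5.61 ± 0.29). HNMT, whose enzyme inactivates histamine, went from 2.67 and 2.54 to 7.87 and 8.32 (5.49 ± 0.24), and 3 of its 5 probe sets moved that way. These 3 were close to the lower end without inhibitor and in the middle of the scale with it.

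IL18, a cytokine gene of the interleukin 1 family, had 2.61 and 4.11 with vehicle and 8.10 and 8.46 with inhibitor (4.92 ± 0.36, adjusted p = 1.36e-07). TGFBI, which encodes a matrix protein made by macrophages, went from 2.74 and 4.46 to 7.18 and 8.74 (4.36 ± 0.56). In TCN1, a vitamin B12 carrier of neutrophil granules, the levels were 2.25 and 3.38 before 6.09 and 6.88 (3.67 ± 0.41). In these genes array 2 was the higher one in both groups, and the groups still did not overlap. MS4A3, a membrane protein gene of granulocyte and monocyte progenitors, rose from 5.49 and 6.89 to 9.26 and 9.94 (3.41 ± 0.29). CD93, a receptor gene of myeloid and endothelial cells, rose from 3.38 and 2.33 to 6.75 and 5.48 (3.26 ± 0.31). The remaining rises of the leading 16 were MAGEA4 (4.37 ± 0.33), the divergent transcript ZNF582-DT (4.14 ± 0.19), LOC100506405 (3.83 ± 0.46), the secreted matrix gene CTHRC1 (3.58 ± 0.23), DCAF4L1 (3.45 ± 0.52) and RAB27B (3.34 ± 0.23). All 16 passed in each of the 4 fits with 1 SKNO1 array left out, with changes from 8.18 to 8.78 in COL14A1 and from 2.62 to 3.89 in CD93.

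The falls were smaller. NRXN2, a neurexin gene better known from synapses, fell from 7.30 and 6.50 to 4.34 and 3.90 (-2.78 ± 0.18, adjusted p = 4.04e-08). TERT, the catalytic subunit of telomerase, had 8.66 and 7.24 with vehicle and 5.28 and 5.19 with inhibitor (-2.71 ± 0.33, adjusted p = 6.51e-05), and its change was -3.42 without vehicle array 2 and -2.002 without vehicle array 1. MANEAL, a gene of the endomannosidase family, went from 8.49 and 8.63 to 6.18 and 6.51 (-2.22 ± 0.37). The treated arrays of these 3 lay below both vehicle arrays. CC2D2A, which encodes a protein of the base of the cilium, went from 7.68 and 7.83 to 6.34 and 5.24 (-1.96 ± 0.25), and DNAAF3, needed to assemble the dynein arms of cilia, from 7.58 and 7.20 to 5.82 and 5.22 (-1.87 ± 0.23). The other large falls were the splicing factor gene ESRP1 (-2.10 ± 0.41), the lectin-like gene ZG16B (-2.05 ± 0.23), LDLRAD4 (-1.97 ± 0.22), which restrains TGF-beta signalling, and IQCK (-1.64 ± 0.25). ESRP1 did not pass without treated array 1 (-1.85, adjusted p = 0.0539). PDCD6P1 had -1.98 ± 0.13, but 1 of its 2 probe sets did not fall, and once probe sets named _x_at, which can bind several genes, were dropped its change was 0.031. It may share signal with its parent gene, and its value is uncertain.

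**Figure D2:**
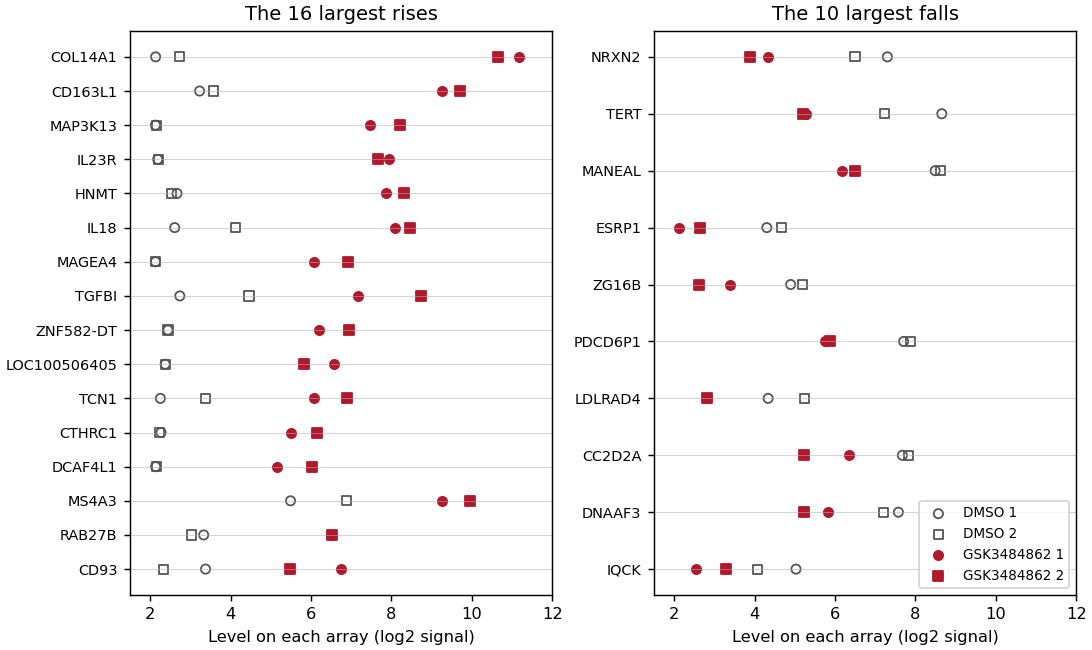
Log2 signals of each SKNO1 array are shown for the 16 largest rises (left) and 10 largest falls (right), open symbols for DMSO, filled symbols for GSK3484862, circles for replicate 1 and squares for replicate 2. The rule for naming these genes required both treated arrays to lie on 1 side of both vehicle arrays, as they do in COL14A1 with 11.18 and 10.65 against 2.14 and 2.73.

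Since the inhibitor acts on CG methylation, promoters of some of these genes are shown, taken from RefSeq (GRCh38.p14) as 300 bases, 250 before and 50 after the start of the gene, on the strand of the gene and with each CG in capitals. They belong to the leading 4 rises with a single promoter entry and to MANEAL, 1 of the 3 largest falls, picked as an example, and they show how much such promoters differ in CG content. CD163L1 (chr12:7444104-7444403, minus strand) and HNMT (chr2:137964223-137964522, plus strand) hold 2 CG each, MAP3K13 (chr3:185282711-185283010, plus strand) 24, TGFBI (chr5:136028738-136029037, plus strand) 27 and MANEAL (chr1:37795238-37795537, plus strand), the gene that fell, 11.
CD163L1: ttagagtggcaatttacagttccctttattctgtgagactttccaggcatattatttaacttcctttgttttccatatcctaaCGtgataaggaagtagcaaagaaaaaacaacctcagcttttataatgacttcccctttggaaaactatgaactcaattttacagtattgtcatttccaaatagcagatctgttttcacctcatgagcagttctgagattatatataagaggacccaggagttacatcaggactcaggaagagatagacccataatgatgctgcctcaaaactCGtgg
HNMT: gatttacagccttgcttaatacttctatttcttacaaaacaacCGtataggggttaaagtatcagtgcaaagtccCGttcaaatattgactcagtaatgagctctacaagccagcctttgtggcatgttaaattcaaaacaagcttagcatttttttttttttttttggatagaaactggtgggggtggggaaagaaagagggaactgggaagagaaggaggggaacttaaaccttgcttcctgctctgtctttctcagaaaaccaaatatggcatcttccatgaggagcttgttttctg
MAP3K13: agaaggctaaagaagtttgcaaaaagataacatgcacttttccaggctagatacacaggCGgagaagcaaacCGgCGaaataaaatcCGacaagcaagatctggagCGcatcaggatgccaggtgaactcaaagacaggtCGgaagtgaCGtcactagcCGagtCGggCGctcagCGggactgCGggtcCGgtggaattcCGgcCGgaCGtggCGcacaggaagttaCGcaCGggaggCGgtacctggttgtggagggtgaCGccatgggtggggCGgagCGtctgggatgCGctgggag
TGFBI: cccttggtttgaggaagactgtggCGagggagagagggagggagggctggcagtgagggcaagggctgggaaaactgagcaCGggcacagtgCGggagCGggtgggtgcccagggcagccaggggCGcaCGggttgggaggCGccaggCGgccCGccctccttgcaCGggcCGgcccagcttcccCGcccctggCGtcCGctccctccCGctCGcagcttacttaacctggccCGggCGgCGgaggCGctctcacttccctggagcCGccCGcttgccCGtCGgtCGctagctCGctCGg
MANEAL: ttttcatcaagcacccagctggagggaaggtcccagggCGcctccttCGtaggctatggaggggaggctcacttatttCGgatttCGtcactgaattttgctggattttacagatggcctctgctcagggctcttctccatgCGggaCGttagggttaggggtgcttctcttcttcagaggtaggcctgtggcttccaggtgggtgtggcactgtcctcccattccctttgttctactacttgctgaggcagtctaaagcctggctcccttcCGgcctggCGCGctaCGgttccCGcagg

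Promoter windows were found for 9563 of the 11676 genes. The median number of CG per window was 22 for the 273 genes called higher that had a window, 17 for the 105 that rose 2-fold or more, 27.5 for the 292 called lower and 25.5 over all genes. Windows with fewer than 5 CG made up 12.5% of the genes called higher, 21.9% of those that rose 2-fold or more, 2.74% of those called lower and 4.28% of all genes. So rises came both from promoters poor in CG, such as those of CD163L1 and HNMT, and from promoters rich in it, such as that of TGFBI. With only genes that have 1 promoter entry, the shares under 5 CG were 14.1%, 23.3% and 2.34%, against 4.70% of all such genes. The letters CACGTG, the E-box bound by MYC and related factors, read the same on both strands and themselves hold a CG. They stood in 21.2% of windows of genes called lower, 6.96% of those called higher and 12.9% of all. TGTGGT, the core bound by RUNX factors, searched on both strands, stood in 13.7%, 15.0% and 13.4%, and TTCNNNGAA, the letters bound by STAT factors, which read the same on both strands, in 9.59%, 11.7% and 8.58%. With only genes that have 1 entry, CACGTG stood in 20.6%, 4.86% and 10.8%, TGTGGT in 9.35%, 8.11% and 9.19%, and TTCNNNGAA in 5.61%, 10.3% and 6.53%, so that the genes called higher lay above all genes for TGTGGT in the first count and below them in the second. A match describes the letters in the window and does not show binding.

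**Figure D3:**
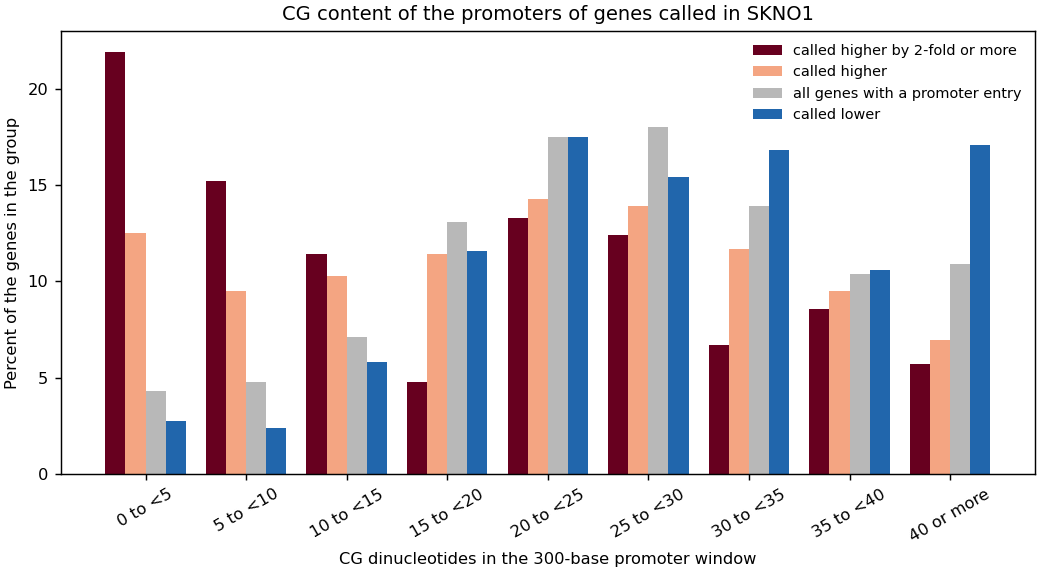
The share of genes (percent) is plotted by the number of CG dinucleotides in the promoter window, for genes called higher by 2-fold or more, genes called higher, all genes with a promoter entry and genes called lower. In the bin under 5 CG the shares are 21.9%, 12.5%, 4.28% and 2.74%, and in the bin of 40 or more they are 5.71%, 6.96%, 10.9% and 17.1%.

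The RNA of the target did not pass the test. DNMT1 had 13.05 and 12.86 with vehicle and 13.11 and 12.96 with inhibitor (0.08 ± 0.07, adjusted p = 0.630), and UHRF1 12.39 and 12.33 before 12.26 and 12.38 (-0.04 ± 0.08). In both the groups overlapped. DNMT3B (0.18 ± 0.10) and the methylcytosine dioxygenase gene TET2 (0.21 ± 0.11) did not pass either. DNMT3A, a de novo methyltransferase gene, had 10.66 and 10.60 with vehicle and 10.12 and 10.22 with inhibitor (-0.47 ± 0.11, adjusted p = 0.0177), but the other of its 2 probe sets did not fall, and it did not pass in any fit with 1 array left out (-0.52 to -0.42). Of 23 measured genes of the DNA methylation machinery 1 rose (4.35%, against 2.96% of all genes) and 2 fell (8.70%, against 3.12%), with a median change of -0.01. ZBTB38, which binds methylated DNA, rose (1.14 ± 0.21, in 2 of 3 probe sets), a call lost without vehicle array 1 (0.92). CDCA7L fell by 0.26 ± 0.06, a call lost without vehicle array 1 (-0.23), vehicle array 2 (-0.29) or treated array 2 (-0.21). Of 72 histone methylation and acetylation enzymes 0 rose and 4 fell (5.56%, against 3.12% of all genes). The arginine methyltransferase gene CARM1 was 1 of these, at 9.24 on both vehicle arrays and 8.86 and 8.88 with inhibitor (-0.38 ± 0.07). It passed in all 4 fits with 1 array left out. Those fits had 2 falls in the list without a vehicle array and 1 without a treated array.

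Germ-line genes were few on the table. Of 50 cancer-testis antigens listed 7 were measured, and 3 rose (42.9%, against 2.96% of all genes) and 0 fell. Their median change was 0.50, against -0.02 over all genes. MAGEA4 lay at the lower end of 2.13 on both vehicle arrays and at 6.08 and 6.91 with inhibitor. MAGEB2, another antigen of the MAGE family, was already expressed, at 8.53 and 8.59, and rose to 11.55 and 11.37 (2.90 ± 0.21, 7.48-fold). Both genes passed in every fit with 1 array left out, while SPA17, a sperm surface gene, at 0.50 ± 0.13, passed in none of them (0.42 to 0.58). Among 11 genes of germ cells, meiosis and the piRNA pathway 0 rose and 1 fell (9.09%, against 3.12% of all genes). The gene that fell was DMC1, the meiotic recombinase gene (-1.06 ± 0.23). It lost that call without vehicle array 1 (-1.01) or treated array 1 (-0.79). The germ-cell gene GCNA, which stands on no list here and was picked after its values were seen, had a change of 2.97 and was called. GTSF1, a piRNA-pathway gene, stood between 13.19 and 13.35 on all 4 arrays.

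Genes of myeloid cells rose in part. Of 27 neutrophil granule and maturation genes 5 rose (18.5%, against 2.96% of all genes) and 0 fell, with a median change of 0.00. S100P, a calcium-binding protein gene, went from 5.88 and 6.17 to 9.16 and 9.38 (3.25 ± 0.28, 9.48-fold), and the formyl peptide receptor gene FPR2 from 3.64 on both vehicle arrays to 5.40 and 5.31 (1.71 ± 0.25). MS4A3, S100P and FPR2 passed with each array left out. The gelatinase gene MMP9 (1.09 ± 0.23) did not pass without vehicle array 1 (1.01) or treated array 1 (0.95), and the fifth was the serine protease gene PRTN3 (0.54 ± 0.15). Between 3 and 5 genes of the list were called with 1 array left out, the 3 without vehicle array 1 or treated array 1. The calprotectin subunit gene S100A8, named after its value was seen, had 8.58 and 9.28 with vehicle and 8.22 and 8.79 with inhibitor and did not pass (-0.42 ± 0.39).

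Among 37 markers of monocytes and macrophages 4 rose (10.8%, against 2.96%), 0 fell and the median change was 0.27. TGFBI led, and MS4A7, a membrane protein gene of macrophages, rose from 3.02 and 3.14 to 5.22 and 4.66 (1.86 ± 0.25, in 2 of 3 probe sets). Both passed with each array left out. The mannose receptor gene MRC1 went from 2.38 and 3.83 to 4.58 and 6.06 (2.22 ± 0.54), with array 2 higher in both groups. Its arrays of the same number differed by 2.20 and 2.23, and its call was lost without vehicle array 1 (1.49) or treated array 2 (1.48). TNFSF13, the cytokine APRIL, rose by 0.93 ± 0.23, a call lost without vehicle array 1 (0.77), treated array 1 (0.98) or treated array 2 (0.88). The list had 3 calls without vehicle array 1 or treated array 2, 5 without treated array 1 and 6 without vehicle array 2. The endotoxin co-receptor gene CD14 lay at 2.13 on all 4 arrays.

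Of 19 basophil, mast cell and eosinophil markers 4 rose (21.1%, against 2.96%) and 0 fell, with a median change of 0.41. FCER1A, the alpha chain of the high-affinity IgE receptor, went from 4.78 and 5.75 to 7.35 and 8.61 (2.71 ± 0.39, 6.56-fold). ADORA3, an adenosine receptor gene, went from 4.98 and 4.61 to 6.70 and 7.16 (2.13 ± 0.35). Both groups were apart in these genes, and both genes passed with each array left out. The Charcot-Leyden crystal gene CLC (1.27 ± 0.32) lost its call without vehicle array 1 (1.02), treated array 1 (1.40) or treated array 2 (1.13), and ALOX5AP, of leukotriene synthesis, at 0.51 ± 0.14, lost it in all 4 such fits (0.44 to 0.58). The list had 2 calls without treated array 2, 3 without vehicle array 1 or treated array 1 and 4 without vehicle array 2. PRG2, an eosinophil granule gene, was at 13.92 and 14.20 with vehicle and 14.48 and 14.58 with inhibitor and did not pass (0.47 ± 0.43).

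Among other lineages, 1 of 9 erythroid markers rose (11.1%, against 2.96% of all genes). It was NFE4, a regulator of fetal globin genes, which went from 10.24 and 10.18 to 11.49 and 11.61 (1.34 ± 0.19). Of 11 megakaryocyte and platelet markers RAB27B and NBEAL2 rose (18.2%, against 2.96% of all genes). NBEAL2 (0.34 ± 0.09) passed in no fit with 1 array left out (0.30 to 0.38). Of 12 measured markers of T, B and NK lymphocytes 0 rose and 0 fell by limma, with 1 higher and 1 lower at an unadjusted p under 0.05. CD3D had 4.82 and 4.32 before 5.60 and 5.74, and NKG7 4.33 and 5.10 before 3.02 and 4.65. The 21 genes of stem and progenitor cells and the HOX family had 3 rises (14.3%, against 2.96%) and 1 fall (4.76%, against 3.12%), with a median change of -0.04. The Tie2 ligand gene ANGPT1 went from 2.18 and 2.13 to 5.55 and 5.16 (3.20 ± 0.20), the adhesion receptor gene ADGRG1 from 3.20 and 4.13 to 6.12 and 6.69 (2.74 ± 0.30) and CPXM1 from 6.29 and 6.04 to 8.68 and 8.47 (2.41 ± 0.17). The receptor kinase gene FLT3 fell from 8.42 and 8.11 to 7.26 and 7.29 (-0.99 ± 0.25), but not without vehicle array 1 (-0.83), treated array 1 (-0.98) or treated array 2 (-1.005).

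The fusion RUNX1-RUNX1T1 is known to hold down genes of granulocyte maturation. Of 37 measured genes reported as repressed by it 3 rose (8.11%, against 2.96% of all genes) and 0 fell, with a median change of 0.12. For the mean of the other lines the median change of the list was 0.25. In 8 of the 37 genes SKNO1 had a lower change than that mean, and in 2 a higher one, beside 3.99% and 3.49% of all genes. CEBPA, the transcription factor gene that directs granulocyte formation, went from 9.60 and 9.51 to 10.14 and 10.12 (0.58 ± 0.08, adjusted p = 3.72e-04, 1.49-fold), and it passed with each array left out, from 0.53 to 0.63. MS4A3 was the other called gene whose arrays were apart. In SLA, an adaptor gene, the arrays overlapped, with 3.76 and 5.86 before 5.70 and 7.79 (1.94 ± 0.53), although arrays of the same number differed by 1.94 and 1.93, and its change was 0.88 without vehicle array 1 and 0.89 without treated array 2, where it did not pass. The count for the list was 2, 6, 7 and 2 without vehicle array 1, vehicle array 2, treated array 1 and treated array 2, and 5 after quantile normalization or centring.

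Of 17 genes of a t(8;21) AML signature 2 rose (11.8%, against 2.96% of all genes) and 0 fell. POU4F1 went from 6.68 and 6.97 to 7.86 and 7.91 (1.06 ± 0.29) and did not pass with any 1 array left out (0.91 to 1.20), and the phosphatase gene UBASH3B went from 9.85 and 9.66 to 10.60 and 10.65 (0.87 ± 0.19) and did not pass without vehicle array 2 (0.78) or treated array 2 (0.85). KIT had 13.16 and 13.01 before 12.67 and 12.42, and did not pass (-0.54 ± 0.34, adjusted p = 0.454). CEBPA was the 1 gene called among 42 myeloid lineage transcription factors (2.38% higher, against 2.96% of all genes).

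Among 33 haematopoietic growth factor receptors 2 rose (6.06%, against 2.96% of all genes) and 1 fell (3.03%, against 3.12%). IGF1R, the insulin-like growth factor receptor gene, rose from 3.57 and 3.56 to 4.43 and 5.23 (1.26 ± 0.19) and passed with each array left out, although 1 of its 4 probe sets did not rise and the mean over them did not pass. CSF2RA, the alpha chain of the GM-CSF receptor on which SKNO1 cultures are known to depend, went from 7.97 and 8.23 to 8.62 and 8.85 (0.63 ± 0.17), a call lost with any 1 array left out (0.50 to 0.77). Its partner CSF2RB (0.11 ± 0.16) and IL3RA (0.24 ± 0.19) did not pass. Of 44 JAK-STAT feedback and STAT5 target genes 3 rose (6.82%, against 2.96%) and 2 fell (4.55%, against 3.12%). IER3, an early response gene, went from 3.15 and 3.83 to 5.67 and 6.71 (2.70 ± 0.41), and the AP-1 gene FOSL1 from 6.25 and 6.33 to 6.69 and 6.89 (0.50 ± 0.08), both called with each array left out. In BCL6, a transcriptional repressor gene, the arrays overlapped, with 3.41 and 5.35 before 5.26 and 6.93 (1.72 ± 0.47), although arrays of the same number differed by 1.85 and 1.58, and its change was 0.74 without vehicle array 1 and 0.88 without treated array 2, where it did not pass. The other of the 2 probe sets of BCL6 did not rise. The phosphatase gene DUSP1 fell (-0.98 ± 0.28), a call lost without vehicle array 1 (-0.88), vehicle array 2 (-1.08) or treated array 1 (-0.70).

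Secreted and secretory genes were among the larger rises. Of 46 extracellular matrix and matrix protease genes 8 rose and 0 fell (17.4% against 2.96% of all genes), with a median change of 0.19. The list had 4 rises without vehicle array 1, 5 without vehicle array 2 or treated array 1 and 6 without treated array 2. After COL14A1 and TGFBI came SERPINF1, a secreted serpin, with 4.04 and 4.27 before 4.69 and 6.36 (1.37 ± 0.36), which depended on treated array 2, without which its change was 0.53, and did not pass without vehicle array 1 (1.25) or vehicle array 2 (1.48) either. ECM1 rose from 5.19 and 4.97 to 6.33 and 6.02 (1.09 ± 0.24), but not without vehicle array 2 (0.98) or treated array 1 (0.94). The urokinase receptor gene PLAUR rose by 0.51 ± 0.13 and the metalloproteinase gene MMP15 by 0.50 ± 0.08.

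Of 35 cytokine and chemokine genes 5 rose (14.3%, against 2.96%) and 0 fell, namely IL18, TNF, CXCL8, TNFSF13 and CCL5. TNF went from 3.37 and 4.55 to 5.79 and 6.97 (2.42 ± 0.47) and CXCL8, a neutrophil attractant gene, from 8.73 and 9.30 to 10.32 and 10.55 (1.42 ± 0.32). Arrays of the same number differed by 2.42 and 2.43 in TNF and by 1.60 and 1.25 in CXCL8. Neither passed without vehicle array 1 (1.83 and 1.14) or treated array 2 (1.83 and 1.31), and without either of these arrays 1 gene of the list was called. Of 25 genes of RAB27 secretory machinery and exocytosis 5 rose (20.0%, against 2.96%) and 1 fell (4.00%, against 3.12%). RAB27B, a small GTPase gene of granule release, went from 3.33 and 3.03 to 6.50 and 6.53 (3.34 ± 0.23), the SNARE gene STX3 from 3.89 and 5.17 to 6.31 and 6.63 (1.94 ± 0.25, in 2 of 3 probe sets) and RAB13 from 4.56 on both vehicle arrays to 6.31 and 5.86 (1.52 ± 0.23). All 3 passed with each array left out, and 3 or 4 of the list rose in those fits. RAB38 fell from 10.49 and 11.25 to 10.13 and 10.17 (-0.72 ± 0.20), passing only without vehicle array 1, and its change was -0.34 without vehicle array 2. Of 25 eicosanoid genes 3 rose (12.0%, against 2.96%), and the number of rises changed with the array left out. The prostaglandin reductase gene AKR1C3 led, from 2.63 on both vehicle arrays to 4.38 and 5.79 (2.46 ± 0.35), and it passed with each array left out.

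Antiviral genes were examined next. The 60 measured genes of the type I interferon response had 4 rises (6.67%, against 2.96% of all genes) and 1 fall (1.67%, against 3.12%), with a median change of 0.03 beside -0.02 over all genes. ISG15, a ubiquitin-like interferon-induced gene, went from 8.13 and 7.71 to 9.70 and 9.54 (1.70 ± 0.15, 3.25-fold) and passed with each array left out. LGALS3BP, a secreted lectin-binding protein, went from 6.24 and 6.36 to 8.42 and 8.21 (2.02 ± 0.45), but did not pass without vehicle array 1 (1.96), vehicle array 2 (2.07) or treated array 1 (1.91). IFIT2 (1.06 ± 0.23) did not pass without vehicle array 2 (0.80) or treated array 2 (0.99), and IFI35 (0.76 ± 0.21) passed in no fit with 1 array left out (0.60 to 0.92). The rises in the list numbered 3 without vehicle array 1, 1 without vehicle array 2 and 2 without either treated array. The ubiquitin ligase gene HERC5 was the 1 that fell (-0.58 ± 0.14). IFI44L, named after its value was seen, lay at the lower end of 2.13 on all 4 arrays. Of 15 nucleic acid sensing genes 0 rose and 1 fell (6.67%, against 3.12% of all genes). The adaptor gene MAVS fell by 0.38 ± 0.10, in 3 of 4 probe sets, a call lost with any 1 array left out (-0.45 to -0.30).

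Antigen presentation showed 1 large rise. TAP2, a subunit of the pump that loads peptides for MHC class I, went from 2.93 and 3.10 to 5.82 and 5.48 (2.63 ± 0.12, adjusted p = 3.87e-10), in all 3 of its probe sets. The class I gene HLA-C went from 11.13 and 10.87 to 11.82 and 11.73 (0.77 ± 0.10), in all 4 of its probe sets, which may share signal with other HLA genes. Both passed with each array left out. PSMB9, an immunoproteasome subunit gene, went from 3.16 and 2.73 to 3.61 on both treated arrays (0.67 ± 0.17), but did not pass without vehicle array 2 (0.45), treated array 1 (0.67) or treated array 2 (0.67). Of the 23 class I and antigen processing genes these 3 rose and 0 fell. Of 16 MHC class II genes 0 were called by limma and 0 had an unadjusted p under 0.05, with HLA-DMA at 0.96 ± 0.54 and HLA-DMB at -0.48 ± 0.36. Of 42 proteasome subunit genes 5 rose by small amounts (11.9%, against 2.96%) and 0 fell, with a median change of 0.10. PSMB6, for example, went from 12.59 and 12.61 to 12.84 and 12.87 (0.26 ± 0.07), a call lost with any 1 array left out (0.24 to 0.27). Without vehicle array 1 there was 1 call in the list, and without any of the other arrays 0.

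Calls among growth genes were small in size. Of 59 S-phase genes 0 rose and 8 fell (13.6% against 3.12%), with a median change of -0.19 and only 3 of the 59 changes above 0. CDT1, which licenses replication origins, went from 12.14 and 12.05 to 11.68 and 11.57 (-0.47 ± 0.09, adjusted p = 0.00262) and passed with each array left out. DTL, which marks CDT1 for destruction, went from 12.40 and 12.23 to 11.89 and 11.95 (-0.40 ± 0.07), but not without vehicle array 1 (-0.31, adjusted p = 0.0597). The cyclin gene CCNE1 (-0.35 ± 0.08) lost its call without vehicle array 1 (-0.26), treated array 1 (-0.37) or treated array 2 (-0.33), and MCM6 (-0.32 ± 0.07) without vehicle array 1 (-0.27) or treated array 2 (-0.20). The count for the list was 2 without vehicle array 1 or treated array 2, 3 without treated array 1, 5 without vehicle array 2, 8 after quantile normalization and 5 after centring.

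Of 67 G2 and mitosis genes 1 rose (1.49%, against 2.96% of all genes) and 0 fell, with a median change of 0.06. The mitotic kinase gene AURKA went from 12.44 and 12.40 to 12.67 and 12.73 (0.28 ± 0.08), and the call was lost with any 1 array left out (0.25 to 0.31). Of 48 ribosome biogenesis and MYC target genes 0 rose and 3 fell (6.25%, against 3.12% of all genes), with a median of -0.04. MYC went from 14.04 and 14.02 to 13.52 and 13.67 (-0.43 ± 0.10, 1.35-fold), but did not pass without vehicle array 1 (-0.42), vehicle array 2 (-0.44) or treated array 1 (-0.36). PUS7 and NOLC1 lost their calls after quantile normalization or centring, which left 1 called gene in the list, and with 1 SKNO1 array left out 0 (vehicle array 1) or 1 (each other array) were called. Of 55 cytosolic ribosomal protein genes 0 were called by limma and 0 had an unadjusted p under 0.05, and their changes ran from -0.10 to 0.22. Of 27 replication-dependent and variant histone genes 5 rose (18.5%, against 2.96% of all genes) and 0 fell, with a median change of 0.24. H2BC4 went from 3.35 and 3.55 to 4.38 and 4.59 (1.03 ± 0.16) and passed with each array left out. H2AC6 (1.11 ± 0.31) and H1-2 (0.95 ± 0.22) did not pass without vehicle array 1 (0.72 and 0.92) or treated array 2 (0.75 and 0.74), and H1-2 not without vehicle array 2 (0.98) either. The list had 2 calls without vehicle array 1 or treated array 2, 3 without vehicle array 2 and 6 without treated array 1. Histone genes have near-identical copies and may share signal.

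Of 24 tumour suppressor genes whose promoters are known to be methylated in leukaemia 2 rose (8.33%, against 2.96% of all genes). They were CEBPA and the cell cycle inhibitor gene CDKN2D (0.66 ± 0.17), of which the second did not pass without vehicle array 1 (0.66), vehicle array 2 (0.65) or treated array 2 (0.45). Of 39 p53 target genes 2 rose (5.13%, against 2.96%) and 1 fell (2.56%, against 3.12%). The death receptor gene TNFRSF10B rose by 0.40 ± 0.08, in 2 of 3 probe sets, a call lost without vehicle array 2 (0.30). Of 52 lysosome genes 5 rose (9.62%, against 2.96%) and 2 fell (3.85%, against 3.12%). Among the rises was IDS, a sulfatase gene, from 12.19 and 12.36 to 12.83 and 12.88 (0.58 ± 0.12, in all 6 probe sets), which did not pass without vehicle array 1 (0.49). The rises in the list numbered 0 without vehicle array 1 and 1 without treated array 2, and the falls 0 without vehicle array 1, vehicle array 2 or treated array 1. The asparagine synthetase gene ASNS, a target of ATF4, rose from 10.81 and 10.72 to 11.38 and 11.43 (0.64 ± 0.10). It was the 1 gene called of 41 unfolded protein and ATF4 response genes (2.44% higher, against 2.96% of all genes). Of 27 cholesterol synthesis genes 0 were called by limma, with 4 lower at an unadjusted p under 0.05, and of 43 hypoxia and glycolysis genes 0, with 3 higher and 1 lower at that p. Of 81 oxidative phosphorylation genes 1 fell (1.23%, against 3.12% of all genes).

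Gene families were also counted by symbol. Of 348 zinc finger genes of the ZNF series 3 rose (0.862%, against 2.96% of all genes) and 9 fell (2.59%, against 3.12%). ZNF595 went from 2.23 and 2.14 to 5.23 and 4.90 (2.88 ± 0.28) and ZNF347 from 4.30 and 3.72 to 5.95 and 6.82 (2.38 ± 0.35), while ZNF747 fell from 6.85 and 6.88 to 5.68 and 5.73 (-1.16 ± 0.15). These 3 passed with each array left out. With 1 array left out the falls in the list were 4 without vehicle array 1, 5 without treated array 2 and 7 without either other array. Of 181 solute carrier genes 6 rose (3.31%) and 9 fell (4.97%), the rises near the share among all genes (2 falls without vehicle array 1 or treated array 1, 4 without treated array 2 and 6 without vehicle array 2), led by the nucleoside transporter gene SLC28A3 (2.51 ± 0.16) and by SLC37A2 (-1.59 ± 0.43), of which the second did not pass without vehicle array 1 (-1.09), treated array 1 (-1.58) or treated array 2 (-1.59). Some called genes lie next to each other in the order of the genes tested. The pairs TCN1 and MS4A3 (3.67 and 3.41), C1orf162 and ADORA3 (3.16 and 2.13), ADGRG1 and ADGRG3 (2.74 and 1.55), SIGLEC6 and SIGLEC10 (2.41 and 1.18) and ZNF582-DT and ZNF582 (4.14 and 0.88) rose together, as did H1-2, H2BC4 and H2AC6. Other neighbours fell together, such as SIMC1P1 and RMND5B (-1.44 and -0.69). These pairs were picked after their values were seen, and whether neighbours share calls more often than other genes was not tested.

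**Figure D4:**
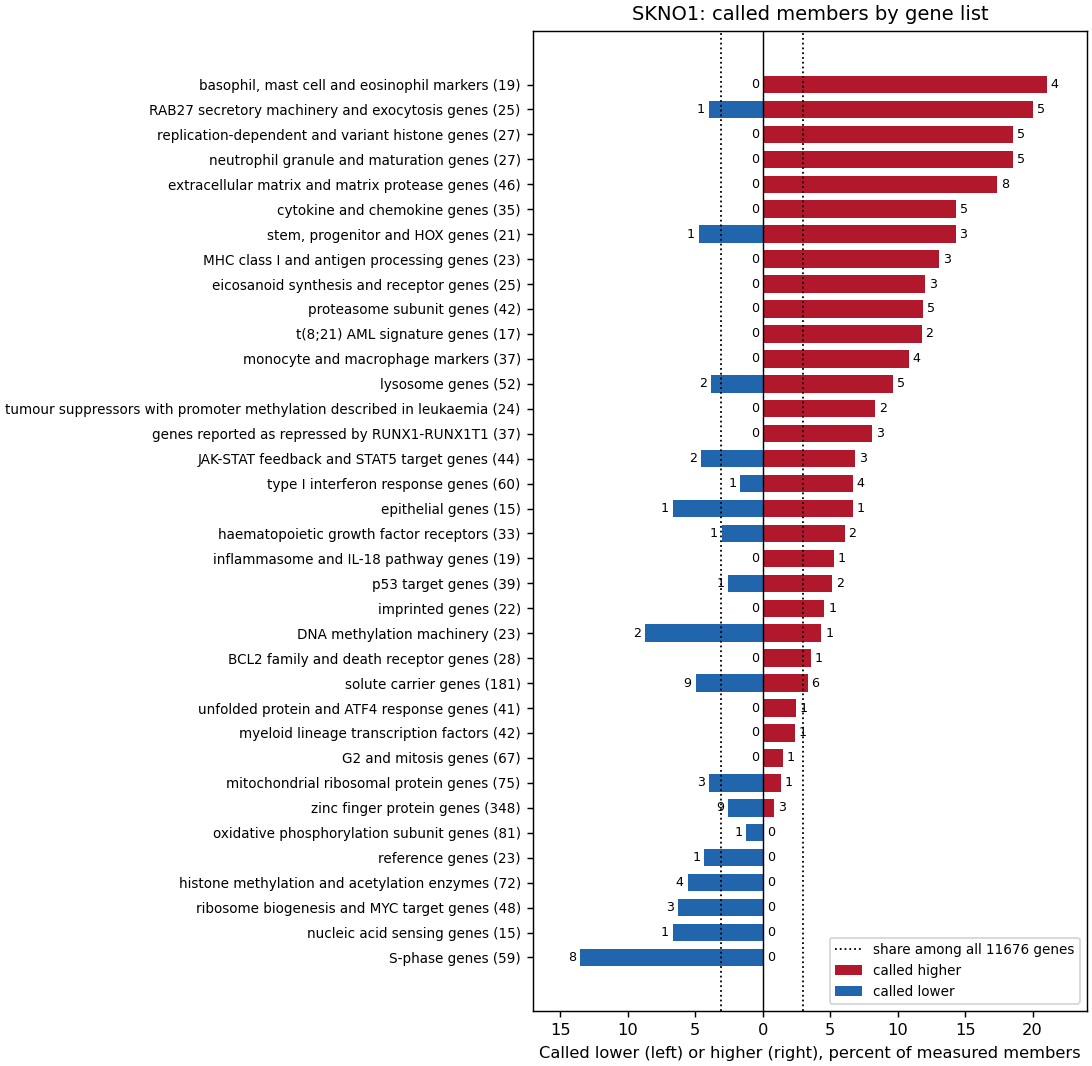
Bars give the percent of the measured members of each gene list that were called lower (left) or higher (right) in SKNO1, for lists with at least 1 call and 15 or more members measured, with the number called beside each bar and the number measured in brackets. Dotted lines mark the shares among all genes, 3.12% lower and 2.96% higher. The S-phase list reaches 13.6% on the left, and the basophil list 21.1% on the right.

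The change in SKNO1 was then compared with the mean change of the other 6 lines in the same fit. This difference was called for 874 genes, 408 with a higher change in SKNO1 (3.49%) and 466 with a lower one (3.99%). Across all genes the 2 changes correlated at r = 0.38, over genes that share arrays and are not independent. Of the 346 genes called higher in SKNO1 167 also had a change above the mean of the other lines, 5 had one below, and for 174 the difference was not called. Of the 364 called lower, 130 had a change below that mean and 1 a change above. A further 240 genes had a higher and 331 a lower change in SKNO1 without a call in SKNO1 itself. Leaving out 1 SKNO1 array gave 176 to 284 genes with a higher change and 218 to 315 with a lower one.

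A mean over lines can be carried by 1 or 2 of them. Of the 42 named genes that rose in SKNO1 by more than the mean of the other lines, 13 rose by more still in at least 1 other line. MAGEA4, for example, rose by 8.29 in SKM1 and 8.63 in THP1 against 4.37 in SKNO1, and CD93 by 7.56 in SKM1 against 3.26. In the genes described next no other line rose as much as SKNO1. MAP3K13 rose by 5.65 ± 0.17 more than the mean of the other lines. Its vehicle level was 2.15 in SKNO1 and 2.21 in GDM1, but 10.7 to 12.2 in the other 5 lines, where it changed by at most 0.17. HNMT (5.33 ± 0.26 more) was at 2.60 in SKNO1, at 2.60 in GDM1 and 3.73 in SHI1, and at 10.1 or more in the other lines. For CD163L1 (5.80 ± 0.29 more) the vehicle level of 3.40 compared with 3.46 to 10.7. TAP2 (2.79 ± 0.13 more) stood at 3.02 with vehicle in SKNO1 and at 8.94 to 10.5 in each other line. IL18 (4.28 ± 0.39 more) stood at 3.36 against 7.41 or more. In these 5 genes, then, SKNO1 started near or below the lowest of the other lines.

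Other genes differed in how many lines rose. COL14A1 lay at 2.13 or 2.14 with vehicle in the other 6 lines and rose by 6.38 in GDM1 and 4.91 in SKM1, but by 0.57 or less in MOLM13, THP1, NOMO1 and SHI1, so that SKNO1 exceeded the mean by 6.49 ± 0.38. IL23R exceeded it by 4.82 ± 0.31, with rises of 2.03 in MOLM13 and 2.41 in THP1. ZNF582-DT exceeded it by 3.44 ± 0.20. ANGPT1 exceeded it by 3.47 ± 0.21, with changes elsewhere from -1.18 in SHI1 to 0.24 in GDM1. CEBPA rose by 0.62 ± 0.09 more than the mean of the other lines, whose changes ran from -0.43 in SKM1 to 0.12 in NOMO1. Genes that fell in SKNO1 with a change furthest below the mean of the other lines were ZG16B (by -2.72 ± 0.25), NRXN2 (-2.55 ± 0.20), CC2D2A (-2.15 ± 0.27), ESRP1 (-2.04 ± 0.44), TERT (-2.01 ± 0.36) and the Notch effector gene HES1 (-1.96 ± 0.23), which fell from 4.62 and 4.33 to 2.90 and 2.86. The mean change elsewhere was above 0 in ZG16B (0.67, with 3.15 in SHI1), HES1 (0.36) and CC2D2A (0.19), so their differences hold rises elsewhere, and against the median of the other lines ZG16B had -2.15 and NRXN2 -2.75. CC2D2A had a vehicle level of 7.75 in SKNO1 and of 2.35 in each other line. NRXN2 lay at 2.17 to 2.28 with vehicle elsewhere, except in GDM1 (9.78), where it changed by -1.43. ESRP1 lay at 2.13 to 2.30 elsewhere, except in THP1 (5.17), where it changed by -0.65. Levels this near the lower end leave little room for a fall, so these differences do not show falls particular to SKNO1. TERT changed by -2.10 in MOLM13.

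Several genes that rose in some other lines were not called here. NAV3 was at 2.41 on all 4 SKNO1 arrays and changed by 4.10 on average in the other lines, from 0.06 in GDM1 to 7.13 in MOLM13 (difference -4.10 ± 0.22). TKTL1 was at 2.13 on all 4 arrays, rose by 4.78 in MOLM13, 5.37 in SKM1 and 5.03 in NOMO1, and changed by 0.00 in GDM1, THP1 and SHI1. GTSF1, at more than 13 in SKNO1 with vehicle, rose by 8.44 in MOLM13 and 7.78 in SKM1, where the vehicle level was near 2, but changed by -0.33 to 0.18 in the other 4 lines, so that its difference was -2.71 against the mean of all 6 and -0.18 against their median. ZNF595 and NFE4 were called in SKNO1 but rose by 3.10 ± 0.31 and 1.73 ± 0.20 less than the mean elsewhere, and MAGEB2 by 1.05 ± 0.22 less. With vehicle NFE4 (10.2) and MAGEB2 (8.56) were already 4.55 and 4.21 above the mean of the other lines, while ZNF595 (2.19) was 0.08 below it. The treated level of NFE4 was 11.5 in SKNO1 and 11.0 in MOLM13, and that of MAGEB2 was 11.5 in SKNO1 and 12.0 in THP1. ZNF595 still changed less in GDM1 (-0.01), NFE4 in SHI1 (0.83) and MAGEB2 in GDM1 (0.37) and THP1 (0.98). Of the 60 interferon response genes 20 had a lower change in SKNO1 than the mean of the other lines and 1 a higher one, beside 3.99% and 3.49% of all genes. Of the 48 ribosome biogenesis and MYC target genes 15 had a higher change and 0 a lower one, the median changes being -0.04 in SKNO1 and -0.36 as the mean of the other lines. Among the 27 neutrophil genes 6 had a lower change and 1 a higher one (median 0.00, and 0.55 elsewhere). For the 37 monocyte and macrophage markers these counts were 7 and 2 (0.27 and 0.60). They were 4 and 1 for the 19 basophil, mast cell and eosinophil markers (0.41 and 0.74). In the 46 matrix genes more changes were higher, 6 against 4 lower (0.19 and 0.24). All these list counts are against the mean of the other lines, and no list was counted line by line. LGALS3BP of the interferon list changed by 4.37 in GDM1, 4.56 in SKM1 and 3.93 in THP1. It changed by 0.01 in MOLM13, 0.28 in NOMO1 and 0.15 in SHI1. MYC changed by -0.81 in SKM1 to -0.20 in SHI1, against -0.43 in SKNO1. For both genes the difference was not called.

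**Figure D5:**
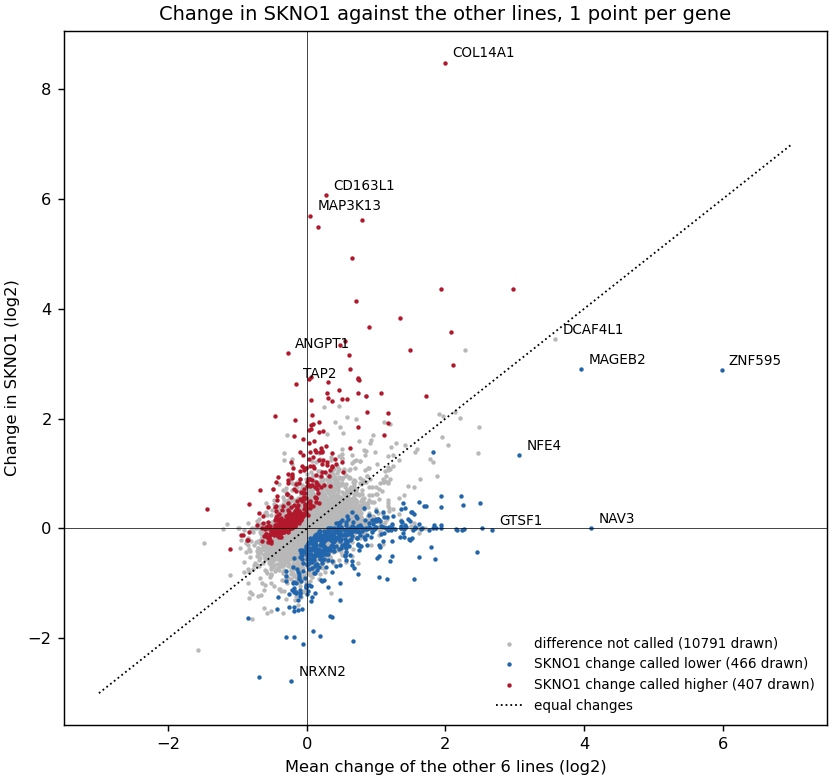
The change in SKNO1 (log2) is plotted against the mean change of the other 6 lines (log2), with 1 point per gene, the dotted line where both are equal, and colours for genes whose difference was called. MAP3K13 and CD163L1 lie high with means of 0.05 and 0.27 elsewhere, NAV3 lies at 0.00 in SKNO1 and 4.10 elsewhere, and DCAF4L1 lies near the line with 3.45 and 3.58.

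The level with vehicle was set beside the change over all called genes, and both use the same vehicle arrays, so the measures are not independent. With vehicle SKNO1 lay at least 4-fold below the mean of the other lines in 60 of the 142 genes that rose by 2-fold or more (42.3%), in 107 of all 346 called higher (30.9%), in 26 of the 364 called lower (7.14%) and in 838 of all 11676 genes (7.18%). It was the lowest of the 7 lines in 106 genes called higher (30.6%) and in 16.2% of all genes. In 36 of those 106 the treated level reached at least the lowest vehicle mean of the other lines, beside 317 of the 1897 genes lowest in SKNO1 among all genes. The 106 were picked for having risen, so a larger share among them is built in.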

How the data were processed

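Gene expression was measured on Affymetrix U133 Plus 2.0 arrays, 2 per group, in 14 groups of 7 AML lines. The authors deposited log2 values per probe set, the log base being judged from the range, and limma is named in the submitters' processing notes without version or role. For background correction, normalization and the summary of probes, the method is not given in the sources used. Genes were named through GEO's annotation of the array (22580 of 27306 probe sets with 1 symbol, 1098 with several, 3628 with none), of which 22567 matched the RefSeq gene table by gene ID. The probe set with the highest mean over 28 arrays stood for each of 11676 genes. All 14 groups entered a single fit (limma 3.58.1, R 4.3.3, functions lmFit and eBayes) with 14 residual and 2.28 prior degrees of freedom, and two-sided p-values were adjusted by Benjamini-Hochberg over all genes, with calls at under 0.05. The fits were tested on simulated data. Named genes were the 16 largest rises and 10 largest falls among calls whose arrays did not overlap, the 8 largest positive and 6 largest negative differences from the other lines, 4 genes changed elsewhere but not called in SKNO1, up to 4 called members of each list (or 2 uncalled), and a set of methylation and leukaemia genes always given. PRTN3, PLAUR, MMP15, HERC5 and CCL5 lie outside this rule, were named after their values were seen and were not looked up with arrays left out. The members and lists were chosen with earlier results of these data known. Promoters are from RefSeq (GRCh38.p14), and a gene with several entries counted for a motif if any entry held it. Alternatives varied the normalization, dim-probe filter, probe set choice, variance model, replicate block, lines and arrays included and thresholds. 1 called gene is not reported here.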

Additional observations from a re-analysis of the deposited data

Results flagged for a closer look

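The genes below drew attention because the change in SKNO1 differed from the mean change of the other 6 lines in the limma fit (adjusted p under 0.05), and the value given is that difference on the log2 scale. That mean can be carried by 1 or 2 lines. Of the 42 genes given with a rise above it, 13 rose by more in at least 1 other line: MAGEA4 (SKM1 and THP1), CPXM1 (SKM1 and SHI1), TGFBI, TCN1, CTHRC1, CD93, MS4A7 and H2BC4 (SKM1), LOC100506405, FCER1A, ISG15 and HLA-C (GDM1) and IGF1R (MOLM13). Rises in SKNO1 that exceeded the mean of the other lines by 2 or more were COL14A1 (6.49), CD163L1 (5.80), MAP3K13 (5.65), HNMT (5.33), IL23R (4.82), IL18 (4.28), ANGPT1 (3.47), ZNF582-DT (3.44), MS4A3 (2.86), RAB27B (2.86), TAP2 (2.79), TCN1 (2.78), SLC10A4 (2.51), LOC100506405 (2.48), TGFBI (2.43), ZNF347 (2.07), SLC28A3 (2.04) and ADGRG1 (2.00). Smaller excesses over the mean, from 1 to 2, were FCER1A (1.97), IER3 (1.95), STX3 (1.77), CD93 (1.77), CTHRC1 (1.501), MAGEA4 (1.40), AKR1C3 (1.39), PERP (1.22), ECM1 (1.14), MS4A7 (1.11) and PHLDA2 (1.09). Differences under 1 were IGF1R (0.86), H2BC4 (0.81), ZBTB38 (0.78), CPXM1 (0.69), ASNS (0.69), FOSL1 (0.64), CEBPA (0.62), ISG15 (0.59), HLA-C (0.44), PSMB6 (0.40), AURKA (0.37), PSME4 (0.35) and PSMA1 (0.33). PUS7, a pseudouridine synthase gene, fell in SKNO1 by less than the mean elsewhere (0.25).

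Genes that fell in SKNO1 and whose change lay below the mean of the other lines, which was above 0 in 10 of these 17, were ZG16B (-2.72), NRXN2 (-2.55), CC2D2A (-2.15), ESRP1 (-2.04), TERT (-2.01), HES1 (-1.96), DNAAF3 (-1.96), SLC37A2 (-1.92), LDLRAD4 (-1.78), PDCD6P1 (-1.67), SLC16A4 (-1.16), CTSW (-1.14), DMC1 (-1.12), ZNF747 (-1.003), RAB38 (-0.79), DNMT3A (-0.48) and MAVS (-0.45). NRXN2, ESRP1 and CC2D2A lay near the lower end with vehicle in most or all other lines, where a fall is limited. Genes that rose in SKNO1 but by less than the mean elsewhere were ZNF595 (-3.10), NFE4 (-1.73) and MAGEB2 (-1.05). The last 2 started with vehicle 4.55 and 4.21 above the mean of the other lines. Genes that were not called in SKNO1 and whose mean change elsewhere was above 0 were NAV3 (-4.10), GTSF1 (-2.71), TKTL1 (-2.53) and PRG2 (-2.03), of which GTSF1 was higher by more than 1 with inhibitor in MOLM13 and SKM1 alone and TKTL1 in MOLM13, SKM1 and NOMO1 alone. The value of PDCD6P1 rests on a probe set of the _x_at kind, which can bind several genes, and that of MS4A7 on the brightest of its 3 probe sets. The differences of DNMT3A, MAVS, AURKA, PSMA1, PSMB6 and PSME4 belong to genes whose call in SKNO1 was lost with any 1 SKNO1 array left out.

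Probe sets that name no single gene were not part of the gene-level comparison. In a fit of all probe sets, 39 of the 3628 with no gene symbol were called higher (1.07%) and 47 lower (1.30%), and 29 of the rises were 2-fold or more. Of the 1098 with several symbols 15 were called higher (1.37%) and 19 lower (1.73%). The shares among the 22580 probe sets with 1 symbol were 1.90% and 1.84%.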

How the results depend on the processing

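Of the 119 named genes called in SKNO1, 108 were called again after quantile normalization, 109 with arrays centred on their medians, 104 with the mean of all probe sets, 117 with a trended robust prior, 118 with array weights, 113 with the replicate block, 103 with a replicate block within each line and 119 without SKM1. Against the median of the other 6 changes in place of their mean, 29 of the 67 named differences moved by more than the standard error of the SKNO1 change and 38 did not, with GTSF1 at -0.18 (against -2.71) and MAGEA4 at 3.92 (against 1.40). With 1 SKNO1 array left out, the genes called higher numbered 213 to 322, those called lower 144 to 216, those with a higher change than the other lines 176 to 284 and those with a lower one 218 to 315, beside 346, 364, 408 and 466 with all arrays. Of the named genes 55 passed in all 4 of these fits and 20 in none. The SKNO1 arrays alone gave 0 rises and 0 falls, with 2 residual degrees of freedom. An adjusted p under 0.01 left 190 rises, 143 falls, 159 higher and 186 lower differences, and a 2-fold limit 142, 60, 90 and 138. Without _x_at probe sets the change of PDCD6P1 turned to 0.031 (adjusted p = 1) and its difference from the other lines to 0.18, and with the mean of all probe sets the difference of MS4A7 turned to -0.030. With the replicate block there were 366 rises and 375 falls, and with a replicate block within each line 420 and 360. Same-numbered arrays deviated together in SKNO1 (r = 0.39), SKM1 (0.37) and NOMO1 (0.31). They did so little or not at all in THP1 (0.09), GDM1 (-0.10), MOLM13 (-0.05) and SHI1 (-0.03). The main fit did not take the numbers as pairs, although SKNO1 had the highest of these values. Leaving out 1 SKNO1 array therefore also moves a change by the deviation that same-numbered arrays share. Alternatives that need scanner files or slides were not run.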

Other observations

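Some groups of genes were not described above. Of 28 BCL2 family and death receptor genes TNFRSF10B alone was called (3.57% higher, against 2.96% of all genes). Of 19 inflammasome and IL-18 pathway genes IL18 alone was called (5.26% higher). Of 15 epithelial genes 1 rose (6.67%, against 2.96% of all genes) and 1 fell (6.67%, against 3.12%). PERP, a p53 target of cell junctions, rose from 5.67 and 5.09 to 6.39 and 6.99 (1.31 ± 0.32), but not without vehicle array 2 (1.02) or treated array 2 (1.01), and ESRP1 fell. Of 22 imprinted genes 1 was called higher (4.55%, against 2.96% of all genes). This was PHLDA2, known from placental growth, at 2.15 and 2.13 before 2.47 and 3.45 (0.82 ± 0.22). It did not pass without vehicle array 1 (0.83), vehicle array 2 (0.81) or treated array 2 (0.33). Of 75 mitochondrial ribosomal protein genes 1 rose (1.33%, against 2.96% of all genes) and 3 fell (4.00%, against 3.12%), with a median change of -0.04. Most of these calls were lost with any 1 array left out. Among 23 reference genes 1 fell (4.35%, against 3.12% of all genes). HPRT1 fell by 0.20 ± 0.05, a call lost after quantile normalization or centring and with any 1 array left out (-0.23 to -0.17).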
